A study of Mus musculus with 9 samples.

Results

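Macrophage and Kupffer cell transcripts were examined in sorted hepatic stellate cells, sinusoidal pericytes of the liver that store vitamin A, as a measure of myeloid RNA carried over in the sorted fraction. The set was 34 genes taken by name from the 35024 rows of the deposited table, and all 34 names were found. They comprise 6 Kupffer cell identity genes, 5 pan-macrophage genes, 3 complement C1q chains, 7 leukocyte and lysosome genes, 6 Fc receptor, adaptor and integrin genes, 3 monocyte genes and 4 scar-associated macrophage genes.

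Stellate cells came from mice on a C57BL/6J background whose livers had been injured with carbon tetrachloride (CCl4, a hepatotoxin). The 4 libraries labelled YAP ko (LYT006, LYT008, LYT016 and LYT013) came from LratCre positive mice with floxed Yap1 (YAP f/f). The 5 libraries labelled control (LYT004, LYT005, LYT015, LYT017 and LYT014) came from YAP f/f mice without the Cre. Both groups received 6 intraperitoneal injections of CCl4 in corn oil at 3-day intervals, and their cells were collected 2 days later, so no library shows an uninjured liver. Cells were enriched on a density gradient and sorted by the autofluorescence of stored retinoids, and the labels name no myeloid surface marker as part of the gate. The library codes fall into 2 ranges, LYT013 to LYT017 (2 labelled YAP ko, 3 labelled control) and LYT004 to LYT008 (2 of each label), to which the labels give no meaning. Age and sex are not in the labels, nor is it stated that each library is 1 mouse. The Lrat promoter drives Cre in stellate cells, so the deletion is aimed at them and not at macrophages. As every YAP ko mouse and no control mouse carries the Cre, its effect cannot be told apart from that of Yap1 loss.

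Kupffer cells are the resident macrophages of the liver. They sit in the sinusoid close to the stellate cells and take up particles, dying cells and bacteria through scavenger and complement receptors. Macrophages depend on the receptor encoded by Csf1r, whose ligands are Csf1 and Il34, and on the transcription factor PU.1, encoded by Spi1. In injured liver, monocytes recruited through Ccr2 add to the resident cells, and macrophages of the scar carry Trem2, Spp1, Gpnmb and Lgals3.

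Yap1, the deleted gene, had 642, 648 and 645 normalised counts in the YAP ko libraries and 2529.8 in LYT013, against 2902, 2915, 3653 and 3551 in the control libraries and 618 in LYT014. The libraries labelled YAP ko LYT013 and control LYT014 thus went against their labels, and they are set apart in every list of values here. By label, Yap1 differed by −1.30 ± 0.54 (SE, log2-like units), and an exact permutation test over 126 regroupings gave a two-sided p of 0.0794. Recovered library totals were 14575281 to 31816055 counts in the libraries labelled YAP ko and 14052502 to 22888193 in those labelled control. A list of 13 stellate cell genes, among them Lrat, Reln, Dcn and Col3a1, summed to 927004 to 1125310 normalised counts in YAP ko and to 954984 to 1175140 in control libraries. Defining stellate markers were therefore present in every library.

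The member transcripts were scarce in every library. Of the 34 members, 30 were above the lowest value of the table in all 9 libraries, 19 stayed under 100 normalised counts everywhere, and 4 stayed under 10. A normalised count is a recovered count divided by the size factor of its library. Together the members took 0.0108%, 0.00965% and 0.0209% of the counts in the YAP ko libraries and 0.0133% in LYT013, against 0.0113%, 0.00647%, 0.0134% and 0.0169% in the control libraries and 0.0149% in LYT014. YAP ko LYT016 held the highest share (Wilson 95% interval 0.0203% to 0.0215%) and control LYT005 the lowest (0.00608% to 0.00689%), and the labelled groups overlapped. These intervals cover counting error only. In such bulk libraries, fewer cells of a type and less RNA per cell cannot be told apart.

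The highest and the lowest level most often fell to the same pair of libraries. YAP ko LYT016 was the highest of the 9 libraries for 19 members and the lowest for 0. Control LYT005 was the lowest for 21 members and the highest for 0. The library labelled YAP ko LYT013 was highest for Cd68, Spi1, Aif1 and Fcer1g, and the library labelled control LYT014 for Adgre1 and Mrc1. Control LYT017 led for Lyz2, Tyrobp, Itgam and Gpnmb.

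**Figure D1:**
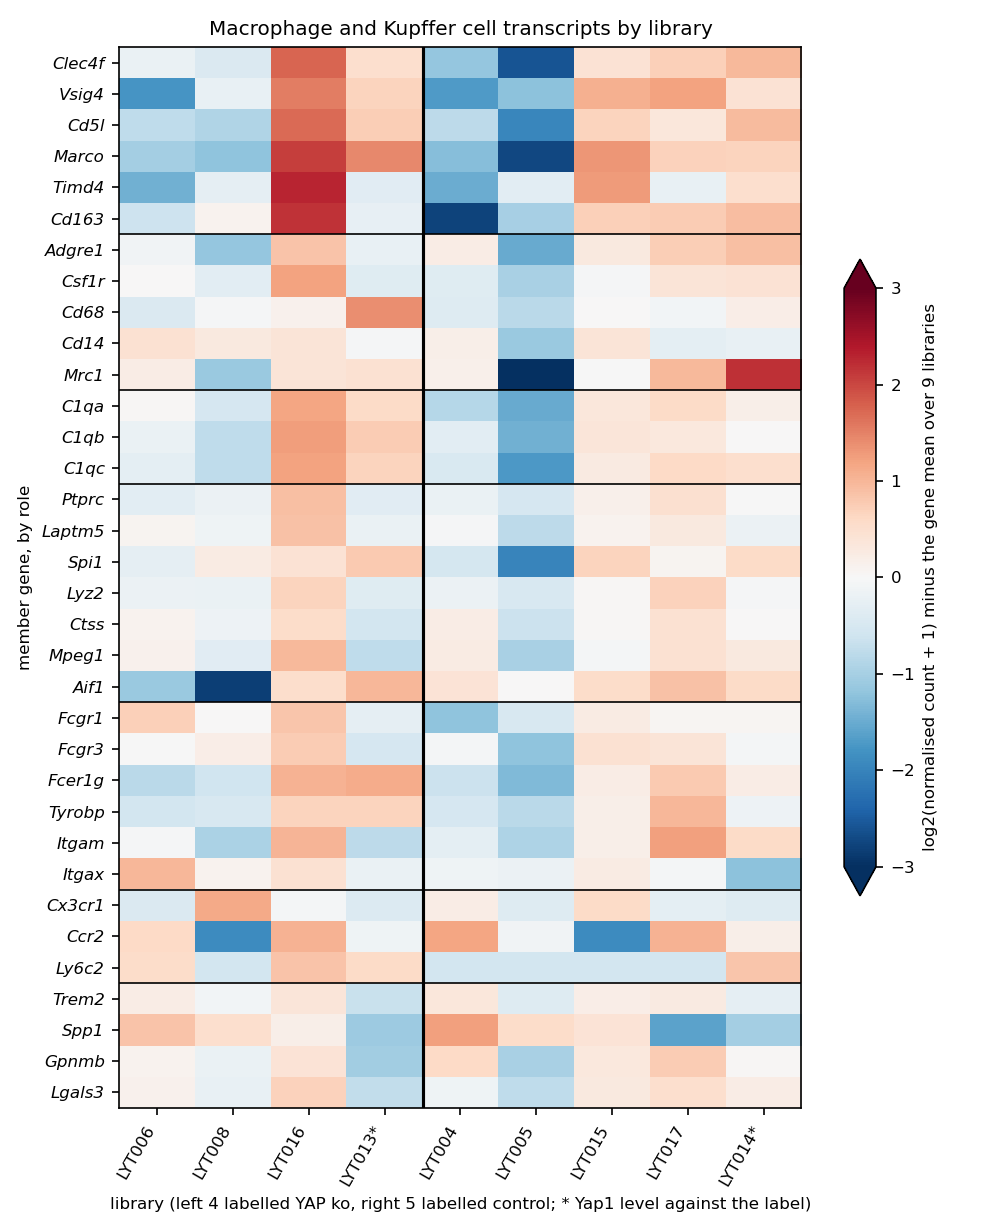
Level of each of the 34 members (rows, by role) in each library (columns, 4 labelled YAP ko at left and 5 labelled control at right), as log2(normalised count + 1) minus the mean of the gene over the 9 libraries; asterisks mark LYT013 and LYT014. LYT016 is the highest library for 19 members and LYT005 the lowest for 21, while 4 of the 6 uppermost rows (Clec4f, Vsig4, Cd5l and Marco) also separate LYT013 to LYT017 from LYT004 to LYT008.

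No member passed the test between the labelled groups. Limma called 0 of the 34 members and 0% of the 17203 genes tested at an adjusted p under 0.05, and 0 members passed in limma voom run on recovered counts. Before adjustment, 0 members had a p under 0.05, against 7.22% of all genes tested. The member differences, YAP ko minus control, were positive for 24 and negative for 10. Their median was 0.08 log2-like units, which understate changes of genes with few counts, beside −0.0045 over all genes tested. The sign of the median rested on single libraries: without YAP ko LYT016 it was −0.04, with 12 members positive and 21 negative, and without control LYT005 it was 0.01, with 18 positive and 16 negative. Limma adjusted p-values of the members ran from 0.653 to 0.990. The groups overlapped for every member, while 2.84% of all genes tested had no overlap. Since separate mice are not stated, these p-values reflect only how far the libraries differ among themselves, which may be partly technical.

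Without LYT013 and LYT014, limma again called 0 of 33 members, against 0.0672% of 16372 genes, and 0 members had an unadjusted p under 0.05, against 6.41% of the genes. Differences were positive for 27 members and negative for 6, with a median of 0.15. Of all genes tested there, 48.9% were positive, with a median of −0.0045. All 33 members overlapped between the 3 YAP ko and 4 control libraries, where 3.93% of the genes lay wholly higher and 3.66% wholly lower in YAP ko. Ly6c2 had too few libraries above the lowest value to be tested there. Limma voom called 0 of these 33 members as well. Within LYT013 to LYT017 the median was 0.11, with 22 of 33 members positive, beside 50.3% of all genes. Within LYT004 to LYT008 it was 0.21, with 28 of 30 members positive, beside 50.1% of all genes. The members there summed to 2046 and 1795 normalised counts in YAP ko LYT006 and LYT008. They summed to 2041 in control LYT004 and 1203 in control LYT005, so LYT005 alone stood well below. The signs of the members are thus not independent of each other.

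**Figure D2:**
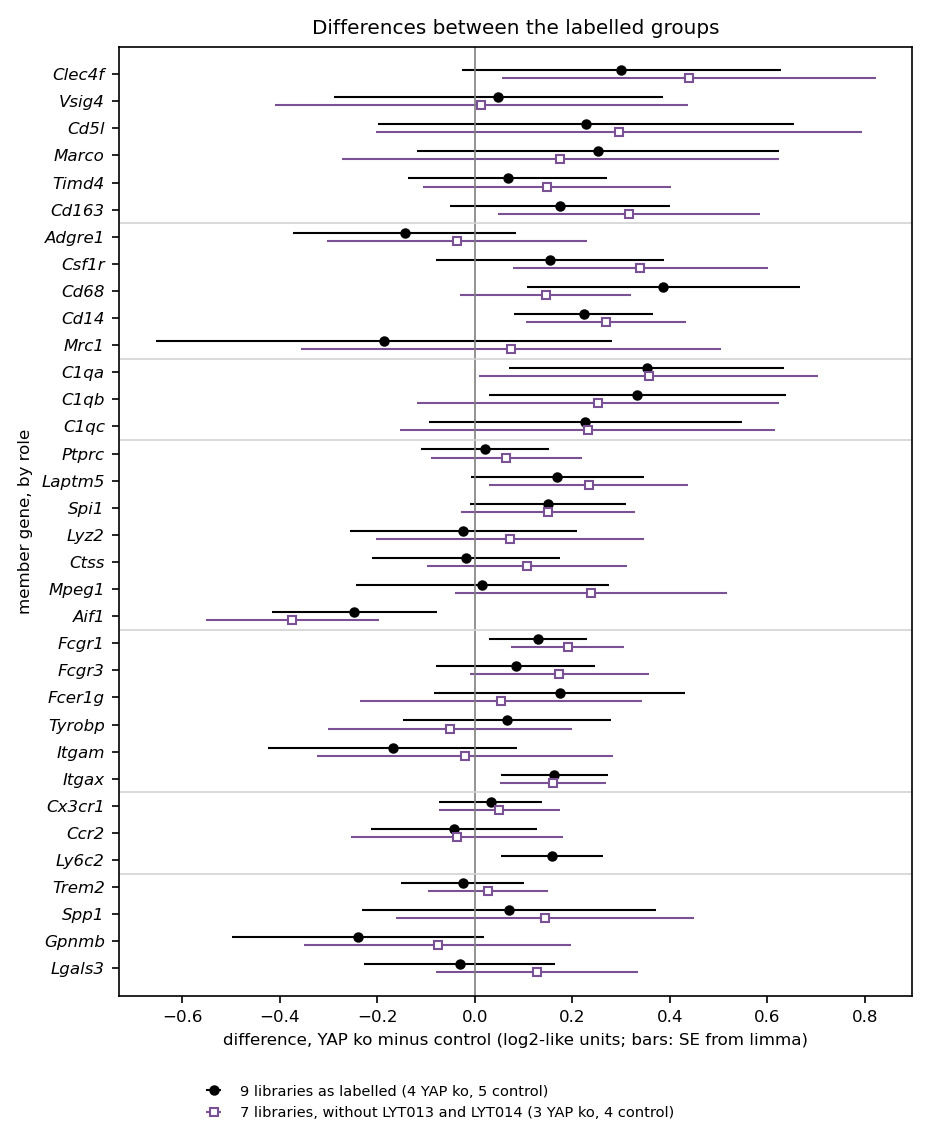
Difference of each member (rows, by role) between the labelled groups, YAP ko minus control, in log2-like units, with SE bars from limma; filled circles are all 9 libraries (4 YAP ko, 5 control) and open squares the 7 libraries without LYT013 and LYT014 (3 YAP ko, 4 control). The values lie on both sides of 0, and 0 of 34 and 0 of 33 members were called; Ly6c2 has no value in 7 libraries.

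Of the 6 Kupffer cell identity genes, 0 separated the labelled groups, beside 2.84% of all genes tested, and 4 were higher without overlap in LYT013 to LYT017 than in LYT004 to LYT008, beside 2.92%. Cd5l, a secreted scavenger receptor cysteine-rich protein of tissue macrophages (GRCm38 chromosome 3, 87357881 to 87371073, plus strand), had 51.9, 47.2 and 288 normalised counts in the YAP ko libraries and 149 in LYT013, against 51.1, 22.1, 140.4 and 113 in the control libraries and 171 in LYT014. Every library from LYT013 to LYT017 was above every library from LYT004 to LYT008, whichever label it carried. Clec4f, the C-type lectin that marks Kupffer cells in mice (chromosome 6, 83644542 to 83656187, minus strand), had 29.98, 25.5 and 118 normalised counts in the YAP ko libraries and 49.7 in LYT013, against 14.9, 4.91, 47.1 and 57.8 in the control libraries and 68.2 in LYT014. YAP ko LYT016 was highest and control LYT005 lowest, and the labelled groups overlapped. Cd5l averaged 134 ± 113 in the 4 libraries labelled YAP ko and 99.5 ± 61.8 in the 5 labelled control (SD). The differences of Cd5l and Clec4f between the labels were 0.23 ± 0.43 and 0.30 ± 0.33 log2-like units (SE), with limma adjusted p-values of 0.861 and 0.763.

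Vsig4, a complement receptor of the immunoglobulin family, had 40.9 to 89.3 in LYT013 to LYT017 and 8.07 to 25.5 in LYT004 to LYT008 (normalised counts). Marco, a scavenger receptor for bacteria and particles, had 35.3 to 95.9 in LYT013 to LYT017 and 2.45 to 10.4 in LYT004 to LYT008. Neither gene overlapped between these ranges of codes, where 2.92% of all genes tested were higher without overlap in LYT013 to LYT017. Timd4, a receptor for phosphatidylserine on dying cells, and Cd163, the haemoglobin scavenger receptor, were scarcer and did overlap, with 3.59 to 27.5 in LYT013 to LYT017 and 1.07 to 3.83 in LYT004 to LYT008 for Timd4 and 4.79 to 30.03 in LYT013 to LYT017 and 0 to 6.38 in LYT004 to LYT008 for Cd163. The 6 genes summed to 648, 316, 332, 291 and 335 normalised counts in LYT016, LYT013, LYT015, LYT017 and LYT014. In LYT006, LYT008, LYT004 and LYT005 they summed to 105, 117, 84.2 and 47.8.

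The complement C1q genes behaved alike. C1qa, C1qb and C1qc encode the chains of C1q, the recognition subunit of the classical complement pathway, which tissue macrophages produce in large amounts, and they lie side by side on chromosome 4. C1qb had 88.8, 59.96 and 242 normalised counts in the YAP ko libraries and 173 in LYT013, against 80.96, 36.8, 132 and 128 in the control libraries and 102 in LYT014. C1qc had 68.04, 48.5 and 195 normalised counts in the YAP ko libraries and 132 in LYT013, against 60.7, 24.5, 101 and 126 in the control libraries and 118 in LYT014. For both genes YAP ko LYT016 was the highest and control LYT005 the lowest, and the labels overlapped, with differences of 0.33 ± 0.30 and 0.23 ± 0.32 (SE, limma adjusted p = 0.721 and 0.814). C1qa had 85.1 to 174 in LYT013 to LYT017 and 25.8 to 77.3 in LYT004 to LYT008. All 3 chains were higher without overlap in LYT013 to LYT017, beside 2.92% of all genes tested.

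The start-site windows of Cd5l, Marco, C1qc and Clec4f are shown, 250 bases before to 50 after the annotated start, from RefSeq on GRCm38.p6. Capitals mark GAGGAAG or its reverse complement CTTCCTC, the purine-rich letters that PU.1 is known to bind.
Cd5l, chr3:87357631-87357930, plus strand: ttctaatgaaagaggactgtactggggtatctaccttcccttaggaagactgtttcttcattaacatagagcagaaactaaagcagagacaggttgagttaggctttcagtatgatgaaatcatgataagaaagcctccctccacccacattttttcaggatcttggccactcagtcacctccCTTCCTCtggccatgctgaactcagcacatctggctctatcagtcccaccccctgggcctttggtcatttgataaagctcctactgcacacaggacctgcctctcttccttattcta
Marco, chr1:120504975-120505274, minus strand: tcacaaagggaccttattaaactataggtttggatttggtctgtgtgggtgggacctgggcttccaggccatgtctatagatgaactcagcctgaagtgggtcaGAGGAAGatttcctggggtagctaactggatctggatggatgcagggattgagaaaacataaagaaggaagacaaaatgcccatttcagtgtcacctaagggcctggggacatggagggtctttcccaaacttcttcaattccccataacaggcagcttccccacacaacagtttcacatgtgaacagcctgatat
C1qc, chr4:136892865-136893164, minus strand: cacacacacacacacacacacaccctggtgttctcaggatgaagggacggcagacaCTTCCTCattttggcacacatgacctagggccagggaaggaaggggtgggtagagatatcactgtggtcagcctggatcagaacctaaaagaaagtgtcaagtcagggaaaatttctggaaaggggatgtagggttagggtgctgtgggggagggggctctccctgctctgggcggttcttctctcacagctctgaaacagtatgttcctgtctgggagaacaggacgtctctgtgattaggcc
Clec4f, chr6:83656067-83656366, minus strand: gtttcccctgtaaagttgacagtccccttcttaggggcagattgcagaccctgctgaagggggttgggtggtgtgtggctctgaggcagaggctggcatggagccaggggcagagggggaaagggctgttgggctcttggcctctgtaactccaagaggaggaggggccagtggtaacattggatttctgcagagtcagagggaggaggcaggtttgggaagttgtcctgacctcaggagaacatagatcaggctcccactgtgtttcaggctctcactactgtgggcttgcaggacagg
The match starts at −67 from the annotated start in Cd5l, at −146 in Marco and at −194 in C1qc, and Clec4f has none in this window. Of 28 members with a window in the RefSeq table, 12 (42.9%) held the motif on either strand, beside 15.4% of 27025 genes. Among the members called between the code ranges, described next, 6 had a window and 3 held the motif. Such a match is a string of letters and not a measured binding site. The members were chosen as macrophage genes, and any part of the motif in their levels across libraries was not tested.

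The ranges of library codes were compared after the values were seen. Without overlap, 10 of the 34 members were higher in LYT013 to LYT017, against 2.92% of the genes tested: Clec4f, Vsig4, Cd5l, Marco, C1qa, C1qb, C1qc, Aif1, Fcer1g and Tyrobp. Spp1 alone was lower without overlap, against 2.99% of the genes. The member differences were positive for 30 of 34 with a median of 0.39 log2-like units, beside 0.01 over all genes tested.

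In limma with the code range as a term beside the label, 7 of 34 members were called, against 0.628% of 17203 genes, and all 7 were higher in LYT013 to LYT017. The terms were 1.29 ± 0.18 log2-like units for Cd5l (SE, limma adjusted p = 0.0208), 1.14 ± 0.14 for Marco (0.0196) and 0.99 ± 0.16 for Vsig4 (0.0317). Those of C1qc, Clec4f, C1qa and Fcer1g were 0.94 ± 0.16, 0.94 ± 0.17, 0.82 ± 0.14 and 0.75 ± 0.12, with limma adjusted p-values of 0.0370, 0.0478, 0.0396 and 0.0317. These units understate changes at low counts. Marco averaged 57.0 normalised counts in LYT013 to LYT017 and 7.57 in LYT004 to LYT008, and Cd5l averaged 172 and 43.1. At an unadjusted p under 0.05, 18 members were higher and 1 lower, against 7.88% and 9.51% of all genes. Without LYT013 and LYT014, 13 members were called, against 7.89% of 16372 genes. The calls rested on single libraries, for the members as for all genes: without LYT004, LYT005, LYT008, LYT015 or LYT017, each left out in turn, 0 members and 0.0118% to 0.0237% of the genes were called. Without LYT013, 10 members and 4.31% of the genes were called, and without LYT006, 8 members and 3.83%. All 7 genes kept a positive term under each of these omissions.

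Other values also differed between the code ranges, some of them with overlap, and their part in the result was not tested. A list of 12 liver endothelial genes had 5 genes higher without overlap in LYT013 to LYT017, beside 2.92% of all genes, with a median difference of 0.94, and 0 of the 12 were called by the code range term. Cell cycle genes, 14 in the list, summed to 892 to 6231 normalised counts in LYT013 to LYT017 and to 1240 to 28521 in LYT004 to LYT008. The median difference of these cell cycle genes was −2.60, but 0 of the 14 separated the ranges without overlap and 0 were called by the code range term. Total counts overlapped, at 14052502 to 31816055 in LYT013 to LYT017 and 14575281 to 16954300 in LYT004 to LYT008. Col1a1, the fibrillar collagen chain, and Axl, a receptor for dying cells, were lower in LYT013 to LYT017 by limma, and Folr2, a folate receptor of resident macrophages, was higher, with 9.402 to 31.7 in LYT013 to LYT017 and 1.23 to 5.77 in LYT004 to LYT008. These 3 genes were named after their values were seen.

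**Figure D3:**
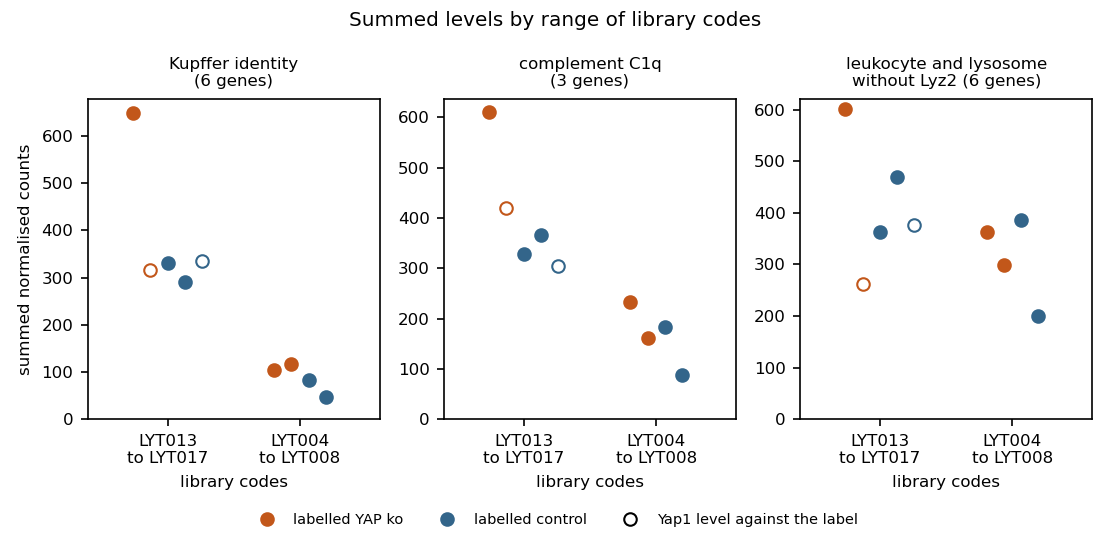
Summed normalised counts of the 6 Kupffer cell identity genes, the 3 C1q chains and the 6 leukocyte and lysosome genes without Lyz2 in each library, by range of library codes; orange points are labelled YAP ko and blue points labelled control, and open points are LYT013 and LYT014. Kupffer cell sums are 291 to 648 in LYT013 to LYT017 and 47.8 to 117 in LYT004 to LYT008, with both labels on each side, whereas the leukocyte sums of the ranges overlap.

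Pan-macrophage genes gave a less uniform picture. Cd68, a glycoprotein of late endosomes and lysosomes, had 149.9, 198 and 222 normalised counts in the YAP ko libraries and 539 in LYT013, against 156, 117, 205 and 193 in the control libraries and 234 in LYT014. The library labelled YAP ko LYT013 stood well above the other 8, which overlapped. LYT013 was also the highest library for some genes of other cell types, such as Des (11983) and Egfl7 (878), and the lowest for others, such as Lrat (35209) and Hgf (6279). Cd68 averaged 277 ± 177 in the 4 libraries labelled YAP ko and 181 ± 45.8 in the 5 labelled control (SD). The Cd68 difference was 0.39 ± 0.28 (SE, log2-like units, limma adjusted p = 0.670), and 0.15 ± 0.18 without LYT013 and LYT014. Cd14, the lipopolysaccharide co-receptor, had 46.1, 40.8 and 43.4 normalised counts in the YAP ko libraries and 32.3 in LYT013, against 37.3, 14.7, 43.3 and 26.9 in the control libraries and 28.1 in LYT014. Its difference of 0.22 ± 0.14 had the smallest p of the 34 members (limma adjusted p = 0.653), and the groups overlapped. Csf1r, the receptor for Csf1 and Il34, had 49.1 to 148 in LYT013 to LYT017 and 31.9 to 64.6 in LYT004 to LYT008, and Adgre1, which encodes the F4/80 antigen, had 25.7 to 56.98 in LYT013 to LYT017 and 9.81 to 35.2 in LYT004 to LYT008. The exons of Csf1r share 873 of 5774 bases with Hmgxb3 on the opposite strand, and no source used here says whether the counting used strand.

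Mrc1, the mannose receptor, had the widest range of levels, 51.03-fold, of the 30 members above the lowest value in every library. Its levels were 78.4, 30.6 and 88.4 normalised counts in the YAP ko libraries and 93.3 in LYT013, against 75.6, 6.13, 66.9 and 134 in the control libraries and 313 in LYT014. The library labelled control LYT014 held far more than any other and control LYT005 almost none. Mrc1 differed by −0.19 ± 0.47 between the labels (SE, limma adjusted p = 0.903) and by 0.07 ± 0.43 without LYT013 and LYT014, with the opposite sign. Liver sinusoidal endothelial cells also carry this receptor. The 12 liver endothelial genes summed to 2785, 2415 and 3007 normalised counts in the YAP ko libraries and 5315 in LYT013, against 2214, 1648, 2783 and 4263 in the control libraries and 5772 in LYT014. LYT014 was highest and LYT005 lowest in that sum too. Its most abundant gene, the lectin Clec4g, was instead highest in LYT013, with 1174, 1026 and 1473 normalised counts in the YAP ko libraries and 3086 in LYT013, against 785, 686, 1327 and 1973 in the control libraries and 1849 in LYT014. These extremes were not particular to endothelial genes. A list of 10 dendritic cell and MHC class II genes also summed highest in LYT014 (1771) and lowest in LYT005 (878, with 879 in LYT004). Msr1, of the innate and clearance receptors, had 87.5 in LYT014 and 4.91 in LYT005, its extremes. The hepatocyte sum was instead lowest in LYT014. LYT005 was also the lowest library for 21 members. How far RNA of endothelial or other cells accounts for the Mrc1 levels was not tested.

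**Figure D4:**
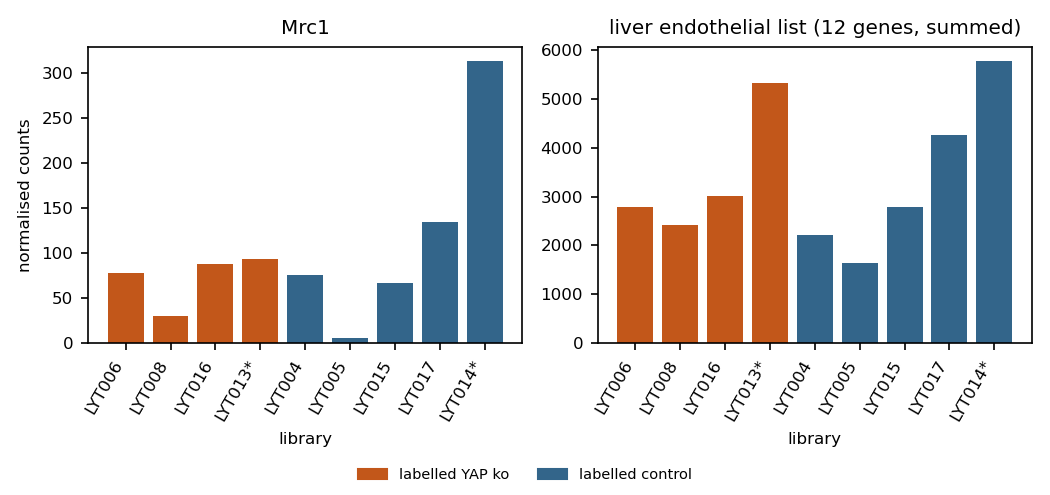
Normalised counts of Mrc1 (left) and of 12 liver endothelial genes summed (right) in each library, orange labelled YAP ko and blue labelled control; asterisks mark LYT013 and LYT014. LYT014 is the highest library and LYT005 the lowest in both panels, with 313 and 6.13 for Mrc1 and 5772 and 1648 for the endothelial genes.

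Leukocyte and lysosome genes held the most abundant member. Lyz2, the lysozyme of macrophages and granulocytes, had 526, 517 and 947 normalised counts in the YAP ko libraries and 463 in LYT013, against 529, 426, 612 and 954 in the control libraries and 583 in LYT014. YAP ko LYT016 and control LYT017 were the highest, and the labels overlapped. Lyz2 averaged 613 ± 224 in the 4 libraries labelled YAP ko and 621 ± 199 in the 5 labelled control (SD). The Lyz2 difference was −0.02 ± 0.23 (SE), with a limma adjusted p of 0.981. Its near-identical neighbour Lyz1 had 37.7 to 120.1 normalised counts in LYT013 to LYT017 and 8.52 to 21.7 in LYT004 to LYT008, and how reads were divided between them is uncertain. Ctss, the lysosomal protease cathepsin S, had 143, 119 and 196 normalised counts in the YAP ko libraries and 89.8 in LYT013, against 154, 84.6, 136 and 183 in the control libraries and 133 in LYT014. Ctss differed by −0.02 ± 0.19 (limma adjusted p = 0.983), and its highest and lowest YAP ko libraries spanned all control libraries but LYT005.

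Aif1, a calcium-binding protein of macrophages, had 2.31, 0 and 9.18 normalised counts in the YAP ko libraries and 13.2 in LYT013, against 8.52, 6.13, 9.42 and 12.1 in the control libraries and 9.63 in LYT014. The Aif1 difference was −0.25 ± 0.17 (SE, limma adjusted p = 0.662), with LYT008 the lowest and LYT013 the highest of all 9 libraries. A count of 0 in LYT008 allows up to 3.83 normalised counts there, so these levels lie close to what the depth can show. Spi1, which encodes PU.1, had 10.4, 15.3 and 17.5 normalised counts in the YAP ko libraries and 22.7 in LYT013, against 8.52, 2.45, 20.7 and 13.4 in the control libraries and 19.3 in LYT014. Ptprc, the CD45 antigen of all leukocytes, had 12.7, 14.03 and 30.9 normalised counts in the YAP ko libraries and 12.6 in LYT013, against 13.8, 11.04, 17.9 and 22.8 in the control libraries and 16.05 in LYT014. YAP ko LYT016 was the highest for Ptprc, and the other 8 libraries lay between 11.04 and 22.8. Laptm5, a lysosomal membrane protein of blood cells, ranged from 39.2 to 126, and Mpeg1, the pore-forming perforin-2, from 56.4 to 221, with LYT005 lowest and LYT016 highest for each.

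Relative to these leukocyte genes the Kupffer cell identity genes differed between the code ranges. The Kupffer cell sum divided by the sum of the leukocyte and lysosome genes without Lyz2 was 1.08, 1.203, 0.912, 0.622 and 0.891 in LYT016, LYT013, LYT015, LYT017 and LYT014. It was 0.289, 0.393, 0.218 and 0.239 in LYT006, LYT008, LYT004 and LYT005. The ranges did not overlap, so the libraries differed in the proportions of the member groups and not only in their sum.

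Among the Fc receptor, adaptor and integrin genes, Tyrobp and Fcer1g encode the ITAM adaptors DAP12 and the Fc receptor gamma chain. Tyrobp had 26.5, 28.1 and 63.4 normalised counts in the YAP ko libraries and 62.8 in LYT013, against 27.7, 22.1, 44.3 and 79.2 in the control libraries and 35.3 in LYT014. The labels overlapped, with a difference of 0.07 ± 0.21 (SE, limma adjusted p = 0.927), while every library of LYT013 to LYT017 was above LYT004 to LYT008. Fcer1g had 41.5 to 77.2 in LYT013 to LYT017 and 13.5 to 22.96 in LYT004 to LYT008. Itgam, the integrin chain CD11b, had 36.9, 19.1 and 78.4 normalised counts in the YAP ko libraries and 21.5 in LYT013, against 30.9, 19.6, 43.3 and 91.3 in the control libraries and 56.98 in LYT014. Control LYT017 and YAP ko LYT016 were the highest, and the difference was −0.17 ± 0.25 (limma adjusted p = 0.824). Itgam shares 3450 of its 5024 exon bases with Gm49368 on the same strand, so its count is uncertain.

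Itgax, the integrin chain CD11c of dendritic cells and some macrophages, had 14.99, 7.65 and 10.01 normalised counts in the YAP ko libraries and 5.98 in LYT013, against 6.39, 6.13, 8.48 and 6.72 in the control libraries and 2.41 in LYT014. The groups overlapped at these low levels, with a difference of 0.16 ± 0.11 (limma adjusted p = 0.657). Fcgr3, a low-affinity receptor for IgG, ranged from 11.04 in control LYT005 to 45.9 in YAP ko LYT016. Fcgr1, the high-affinity receptor, ranged from 1.07 in control LYT004 to 7.51 in YAP ko LYT016.

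Monocyte genes were close to 0 in every library. Ccr2, the receptor that draws monocytes into injured tissue, had 4.61, 0 and 6.67 normalised counts in the YAP ko libraries and 2.39 in LYT013, against 7.46, 2.45, 0 and 6.72 in the control libraries and 3.21 in LYT014. Cx3cr1, the fractalkine receptor, had 2.31, 8.93 and 3.34 normalised counts in the YAP ko libraries and 2.39 in LYT013, against 4.26, 2.45, 5.65 and 2.69 in the control libraries and 2.41 in LYT014. No order of the libraries can be read at these levels, and the differences were −0.04 ± 0.17 for Ccr2 and 0.03 ± 0.11 for Cx3cr1 (SE, limma adjusted p = 0.945 and 0.928). Ly6c2, a surface marker of inflammatory monocytes, had 1.15, 0 and 1.67 normalised counts in the YAP ko libraries and 1.197 in LYT013, against 0, 0, 0 and 0 in the control libraries and 1.605 in LYT014. A count of 0 allows 1.795 normalised counts in the deepest library and 4.03 in the shallowest, above every value seen for Ly6c2, whose difference was 0.16 ± 0.11 (SE, limma adjusted p = 0.653). Its near-identical neighbour Ly6c1 was at 0 in 6 of the 9 libraries.

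Of the 4 scar-associated macrophage genes, 0 were called between the labels or the code ranges, beside 0% and 0.628% of all genes tested. At such shares the count says little about these genes. Gpnmb, a transmembrane glycoprotein of lipid-laden macrophages, had 128, 103 and 158 normalised counts in the YAP ko libraries and 56.8 in LYT013, against 181, 60.1, 148 and 201 in the control libraries and 123 in LYT014. Control LYT017 and LYT004, from different code ranges, were the highest. The difference between labels was −0.24 ± 0.26 (SE, limma adjusted p = 0.760). Lgals3, which encodes galectin-3, had 69.2, 53.6 and 103 normalised counts in the YAP ko libraries and 37.1 in LYT013, against 57.5, 36.8, 77.3 and 89.99 in the control libraries and 73.03 in LYT014, a difference of −0.03 ± 0.20 (limma adjusted p = 0.968). Spp1, the matricellular protein osteopontin, which other liver cells also make, had 85.3, 66.3 and 52.6 normalised counts in the YAP ko libraries and 21.5 in LYT013, against 111, 68.7, 62.2 and 14.8 in the control libraries and 22.5 in LYT014. Spp1 was lower in every library of LYT013 to LYT017 than in LYT004 to LYT008, with a limma term of −0.74 ± 0.21 that did not pass (adjusted p = 0.104). Its exons share 309 of 1648 bases with Gm42793 on the same strand. Trem2, a lipid receptor that signals through DAP12, ranged from 14.96 in LYT013 to 31.7 in YAP ko LYT016.

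Each member was also set against the C1q sum of its library, to see which members kept a steady proportion to it. Of 30 members above the lowest value in every library, 6 stayed within 3-fold over the 9 libraries: C1qa, C1qb and C1qc, which are themselves part of the sum, and Fcer1g, Tyrobp and Cd5l. Cd5l ran from 22.2% of the C1q sum in YAP ko LYT006 to 56.1% in the library labelled control LYT014. Mrc1 ran from 7.04% in control LYT005 to 103% in LYT014, a 14.6-fold range. Spp1 had the widest range, 19.6-fold, from 4.03% in control LYT017 to 78.9% in control LYT005. Lyz2 ran from 110.3% in LYT013 to 489% in control LYT005. Timd4, Fcgr1, Cx3cr1 and Spi1 fell as low as 1.07, 1.07, 2.31 and 2.45 normalised counts. Counting error alone can take such scarce members beyond 3-fold. Abundant members such as Lyz2 did not keep 1 fixed ratio to the C1q sum across the libraries.

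Several ligands of member receptors were abundant beside those receptors. Csf1 had 8224, 7529 and 9163 normalised counts in the YAP ko libraries and 10446 in LYT013, against 6554, 7683, 12893 and 7891 in the control libraries and 7975 in LYT014. Il34, given like Cx3cl1 as the ligand of a member, had 2181 to 4331 in the libraries labelled YAP ko and 1857 to 4384 in those labelled control. As levels per kilobase of exon, Csf1 and Il34 averaged 2085 and 1706 normalised counts over the 9 libraries, against 14.8 for Csf1r. Ccl2, a chemokine ligand of Ccr2, averaged 2878 per kilobase, against 0.650 for Ccr2, and Cx3cl1 averaged 239, against 0.851 for Cx3cr1. In contrast, 3 of the listed ligands, Csf2, Ccl8 and Ccl12, stayed under 10 normalised counts in every library. Of the 8 ligands in the list, 7 were tested and limma called 0 higher and 0 lower between the labels, against 0% of all genes. At an unadjusted p under 0.05 there were 0, against 7.22% of all genes.

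Further gene lists around the members gave 0 calls by label in limma, against 0% of all genes in 9 libraries and 0.0672% in 7. In 9 libraries 1 gene had an unadjusted p under 0.05, against 7.22% of all genes, the iron exporter Slc40a1 (−0.39 ± 0.11, limma adjusted p = 0.649). Slc40a1 had 2498 to 3019 normalised counts in libraries labelled YAP ko and 3140 to 4277 in those labelled control. It did not overlap between the labels, as for 2.84% of all genes tested. The lists covered 10 further Kupffer cell genes, 6 phagocyte NADPH oxidase genes, 10 ITAM signalling genes, 10 pan-haematopoietic genes, 11 innate and clearance receptors and 8 lipid and lysosome genes. Several of these are broadly expressed and far above the members, such as Id3 and Apoe, with 8771 to 21053 and 36568 to 107745 normalised counts. Markers of other cells varied as well. Neutrophil genes summed to 8.93 to 22.7 normalised counts in libraries labelled YAP ko and 4.91 to 21.5 in those labelled control, with 8 of 9 genes under 10 everywhere. T and NK cell genes summed to 17.3 to 21.7 in YAP ko and 14.8 to 28.3 in control libraries, with 2 of 10 genes at 0 throughout. B cell genes summed to 16.1 to 65.8 in YAP ko and 19.6 to 64.5 in control libraries. Hepatocyte genes summed to 753 to 1598 in YAP ko and 433 to 1359 in control libraries. Of 8 erythroid and platelet genes, 3 were tested, limma called 0, and 2 had an unadjusted p under 0.05, against 7.22% of all genes tested. The platelet genes Ppbp and Gp9 had at most 2.99 and 1.23 normalised counts in any library. Pf4, listed as a platelet chemokine, had 354, 383 and 408 normalised counts in the YAP ko libraries and 677 in LYT013, against 159, 248, 302 and 240.4 in the control libraries and 326 in LYT014. The labelled groups did not overlap for Pf4, as for 2.84% of all genes tested (difference 0.70 ± 0.21, limma adjusted p = 0.649). Hbb-bs, a beta globin of red cells, had 0, 3.83 and 1.67 normalised counts in the YAP ko libraries and 7.78 in LYT013, against 6.39, 0, 74.4 and 316 in the control libraries and 80.2 in LYT014, a difference of −1.30 ± 0.59 with the same adjusted p. Control LYT017 was far the highest for Hbb-bs, while the other erythroid genes of the list, Hba-a1, Hba-a2, Hbb-bt and Alas2, were at 0 there.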

How the data were processed

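RNA sequencing values of 9 libraries of sorted hepatic stellate cells were used. The authors deposited 1 table of log2-like, variance-stabilised values by gene name and library, whose lowest value, 4.96, fills 13872 of 35024 rows in every library. No source used here gives the step that made them. The submitters' processing notes list bcl2fastq 2.20, kallisto 0.44.0, sleuth and the builds GRCh38, GRCm38 and mm10. The labels' protocols describe a poly-A and a ribosomal depletion preparation without assigning either to a library. Columns were matched to samples by library code. The column of LYT013 was headed LYT013.1, a suffix that no label explains. Reference names were found for 34802 gene names (99.4%).

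Inverting the transformation turned every value above the lowest (100%) into a whole number to within 0.1. Dividing these recovered counts by a library's size factor gave the normalised counts of the text. As the deposited unit was a transformed value, no count model was the main test. The 17203 genes with 4 or more libraries above the lowest value entered limma 3.58.1 in R 4.3.3 on the deposited log2 values, with group as the factor, a mean-variance trend and Benjamini-Hochberg adjustment at 0.05. Differences on this scale understate the change of genes with few counts. The procedure was tested on simulated data. Positions and exon lengths came from GENCODE release M21 on GRCm38, and promoter windows from RefSeq. The members and the gene lists, 24 in all with the 7 role groups, were chosen with earlier results of these data known. By the rule for named genes, the most abundant pair of each role group (by mean level) and any member called between the labels have values in every library, and these and the 5 members with the smallest p have differences. Values in every library for those 5 and for Spi1, Ptprc and Spp1 were added after they were seen. Alternatives covered filters, scaling, transformation, moderation, library weights, the code range as covariate or stratum, and the omission of LYT013 with LYT014 or of each library in turn. The code range term and limma voom without LYT013 and LYT014 were added after the values were seen. No sample was regrouped.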

Additional observations from a re-analysis of the deposited data

Results flagged for a closer look

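In groups of 4 or 5 libraries, the highest or lowest library was compared with the gap to its nearest neighbour, for 70 combinations of gene and label. In 3 of them 1 library stood apart, and chance alone sets apart about 1 in 20 such groups. Ptprc was highest in YAP ko LYT016, with 30.9 normalised counts, while the other 3 libraries labelled YAP ko had 12.6 to 14.0. Ly6c2 was at 0 in YAP ko LYT008, while the others labelled YAP ko had 1.15 to 1.67. Among the libraries labelled control, Ly6c2 was at 1.605 in LYT014 and at 0 in the other 4. Each Ly6c2 value rests on 2 counts or fewer, under the 3 counts that a count of 0 allows.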

How the results depend on the processing

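Members called between the labels numbered 0 under all 22 alternatives. Of 383 differences of the 18 named members, 327 kept their direction and 56 reversed, and C1qb, Cd14, Cd68, Clec4f, Itgax and Ly6c2 kept it under every alternative that gave a value. The cause of each reversal was not tested. Genes called overall numbered 0, but 11 without LYT013 and LYT014, 8 by limma voom without them and 4 within LYT004 to LYT008. In these settings the Yap1 difference was −2.22, −2.35 and −2.07. As LYT013 and LYT014 were set apart for their Yap1 level, a test of Yap1 without them has no weight. The member median was 0.41 by limma voom without LYT013 and LYT014. Reversed differences without LYT013 and LYT014 were 0.075 (Mrc1), 0.071 (Lyz2), 0.11 (Ctss), −0.051 (Tyrobp) and 0.13 (Lgals3). By limma voom without them they were 0.41 (Mrc1), 0.082 (Lyz2), 0.18 (Ctss), 0.067 (Itgam), −0.011 (Tyrobp), 0.10 (Ccr2) and 0.26 (Lgals3). With library weights they were −0.13 (Cd5l), −0.015 (C1qc), 0.045 (Ctss), −0.11 (Tyrobp), 0.013 (Ccr2) and 0.012 (Lgals3). Within LYT004 to LYT008 they were 0.39 (Mrc1), 0.12 (Lyz2), 0.12 (Ctss), 0.053 (Itgam), 0.058 (Gpnmb) and 0.22 (Lgals3). Within LYT013 to LYT017 they were −0.043 (Cx3cr1), 0.16 (Ccr2) and 0.028 (Aif1). Quantile normalisation gave 0.039 (Ctss) and 0.046 (Lgals3), median centring 0.0023 (Ctss), the code range as covariate 0.018 (Lyz2), and voom −0.0097 (Cx3cr1). With 1 library left out at a time, differences ran from −0.13 to 0.47 (Cd5l), −0.57 to 0.17 (Mrc1), −0.0067 to 0.44 (C1qc), −0.24 to 0.13 (Lyz2), −0.16 to 0.11 (Ctss), −0.036 to 0.21 (Tyrobp), −0.053 to 0.071 (Cx3cr1), −0.15 to 0.092 (Ccr2) and −0.18 to 0.10 (Lgals3). Members called by code range numbered 7 (0.628% of all genes), against 3 without the label term (0.186%), 3 by voom (0.645%), 13 without LYT013 and LYT014 (7.89%), 16 with library weights (10.5%), and 0 to 10 with 1 library left out (0.0118% to 4.31%). No paired analysis was possible because the labels share no replicate numbers between the groups. Depth limits the monocyte genes, which lie near the 3 counts that a count of 0 allows.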
